A study of Oryza sativa with 239 samples.

Results

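The genes described here lie in 1 stretch of rice chromosome 9, from LOC_Os09g26400 to LOC_Os09g32620 in the order of their identifiers. Of 540 identifiers of this stretch in the count table, 236 were kept as members, out of 55986 identifiers in the whole table. A member had a mean of at least 1 CPM (reads per M, or mega, reads of the library) over all libraries of at least 1 M reads, which 299 of the identifiers did not reach. Another 5 identifiers were set aside by the rule, of which 4 reached the minimum. The stretch was chosen from the levels of Dro1-NIL and IR64 in irrigated leaves, so those levels are given as a description, without a test. The comparisons between lines were tested in drought leaves, which had no part in that choice. Where a comparison also uses control libraries, this is said beside it.

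A near-isogenic line carries a segment of a donor chromosome in the background of another variety, made by repeated backcrossing. Genes next to the selected locus travel with it, so a line of this kind keeps donor alleles along a run of neighbours while the rest of its genome comes from the recurrent parent. Dro1-NIL is read here as the line that carries DRO1, a root growth angle locus of chromosome 9, in IR64, a lowland variety. The labels give no long form of KP, which is taken to be Kinandang Patong, the upland donor of DRO1. Gene names, functions, coordinates and sequences of the members were not used here, because the reference table matched 0 of the identifiers. For the same reason the leaf label was not checked against marker genes.

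Leaves of 40 cultivars were sampled on day 5 of the treatment from chamber-grown plants in automatically irrigated pots, as the latest fully expanded leaf and the leaf below it. The groups used are control (irrigated throughout) and drought (drained) leaves of IR64, of Dro1-NIL, of KP and of 37 other cultivars, which are Koshihikari and 36 numbered accessions of the World Rice Core collection (WRC). The treatment is moderate drought by the sample labels, while the protocol describes severe drought and rewatering. Each group had 3 replicates, except Dro1-NIL in drought with 2, numbered 2 and 3. The labels do not say that each library came from a separate plant, so p-values measure the spread between these samples.

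The 239 libraries held a median of 15.1 M reads, and 4 drought libraries under 1 M were left out, 1 each of WRC02, WRC13, WRC28 and WRC47. The 17 libraries of IR64, Dro1-NIL and KP held 3.17 to 22.7 M, and the shallowest was Dro1-NIL drought replicate 3. Reads of every cultivar were aligned to the reference build IRGSP-1.0. A lower level, a read that could not be aligned because the cultivar's sequence differs from the reference, and a gene missing from the cultivar cannot be told apart in these counts. Nor can fewer cells of a type and less RNA per cell in whole leaves. CPM values are not corrected for gene length, so levels are compared between cultivars and not between genes.

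At the low end, the nearest identifier outside the stretch with enough reads to be tested was LOC_Os09g26390. It was at 204 CPM in control leaves of IR64, 162 CPM in those of Dro1-NIL and 154 CPM in those of KP. Dro1-NIL thus lay nearer to KP than to IR64 there too. The first member, LOC_Os09g26400, stood at 51.9, 86.6 and 73.7 CPM in IR64, Dro1-NIL and KP in turn. At the high end, the last member, LOC_Os09g32620, stood at 3.89, 34.5 and 52.4 CPM. The nearest tested identifier outside this end, LOC_Os09g32640, was at 57.8, 53.5 and 56.1 CPM. At the expression minimum, LOC_Os09g31350 was the lowest member with a mean of 1.03 CPM and LOC_Os09g27450 stood just outside with 0.999 CPM.

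KP and IR64 differed at 62 of the 234 members tested in drought leaves, of which 37 were higher and 25 lower in KP. A member is called when its edgeR quasi-likelihood test gave a Benjamini-Hochberg adjusted p under 0.05 over all genes and the levels differed by a fold of at least 2. Of all tested genes, 27.7 percent were called in this comparison, 16.4 percent as higher and 11.2 percent as lower in KP. The members' share of 26.5 percent is near that background, so the stretch held about as many differences between KP and IR64 as the genome. The median size of the difference was 0.465 on the log2 scale over the members and 0.493 over all tested genes. In control leaves, whose IR64 libraries the choice of the stretch had used, 53 members passed the same thresholds beside 25.3 percent of all genes, given as a description.

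Some members had reads in KP and none in IR64. LOC_Os09g26530 was at 8.89, 9.05 and 8.5 CPM in the 3 KP drought libraries and at 0 in all 3 of IR64. The 2 Dro1-NIL drought libraries were at 14.3 and 14.5 CPM, above each KP library. Against a floor of 3 reads over the IR64 drought libraries, KP was at least 128-fold higher (edgeR adjusted p = 6.9e-10) and Dro1-NIL at least 209-fold higher (edgeR adjusted p = 2.0e-08). LOC_Os09g26554 was at 12.3, 13.1 and 12.6 CPM in KP, at 9.24 and 11.6 CPM in Dro1-NIL and at 0 in all 3 IR64 libraries. KP was at least 183-fold higher than IR64 (edgeR adjusted p = 5.1e-10) and Dro1-NIL at least 151-fold higher (edgeR adjusted p = 8.2e-08). Both genes also had 0 reads in all 3 IR64 control libraries.

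LOC_Os09g29540 had 0 reads in IR64 drought leaves too, with 11.1, 11.7 and 1.65 CPM in KP. Its KP level was above the floor by at least 6.88 on the log2 scale (edgeR adjusted p = 4.1e-05), and 1 KP library lay far below the other 2. Dro1-NIL was at 0.467 and 0.87 CPM, below each KP library. LOC_Os09g32169 was at 1.74, 3.03 and 8.38 CPM in KP and at 0 in all IR64 and Dro1-NIL drought libraries. KP was at least 63.6-fold above IR64 (edgeR adjusted p = 0.00021). Without KP drought replicate 3, the highest library, this bound was 34.6-fold. Here Dro1-NIL had the IR64 level and not that of the donor.

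LOC_Os09g30510 was at 2.84, 3.52 and 3.17 CPM in KP drought leaves, at 3.03 and 0.87 CPM in Dro1-NIL, and at 0.0944, 0 and 0 CPM in IR64. Both IR64 reads came from drought replicate 1. The 2 reads put the summed KP reads at 69.1 times the IR64 level (95% exact interval 18.8 to 576, counting error only), with an edgeR adjusted p of 1.2e-06. LOC_Os09g32620, the member at the high end, was at 43.5, 86.5 and 103.8 CPM in KP, at 80.3 and 43.8 CPM in Dro1-NIL, and at 5.57, 4.41 and 5.29 CPM in IR64. Every KP and Dro1-NIL library lay above every IR64 library. The log2 difference of KP from IR64 was 3.96 (SE 0.31, edgeR adjusted p = 2.3e-08).

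The strongest difference in the other direction was at LOC_Os09g32095. It was at 8.59, 6.7 and 5.7 CPM in IR64 drought leaves, at 0.158, 0.217 and 0.127 CPM in KP, and at 0.0933 and 0 CPM in Dro1-NIL. KP lay below IR64 by 38.2-fold, with a log2 difference of -5.26 (SE 0.43, edgeR adjusted p = 3.4e-08). LOC_Os09g27900 was at 50.8, 40.1 and 44.6 CPM in IR64, at 11.7, 11.2 and 11.4 CPM in KP, and at 9.8 and 11 CPM in Dro1-NIL. The groups of IR64 and KP did not overlap, and both Dro1-NIL libraries lay below those of KP. The log2 difference of KP from IR64 was -1.97 (SE 0.16, edgeR adjusted p = 3.6e-08).

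Lower levels in KP were also found at LOC_Os09g31050, with 0.947, 1.73 and 1.52 CPM in KP drought leaves against 7.36, 5.16 and 6.51 CPM in IR64 (log2 difference -2.17, SE 0.31, edgeR adjusted p = 2.4e-05). Dro1-NIL was lower still, at 0.56 and 0.29 CPM. LOC_Os09g31498 was at 0.789, 1.79 and 0.762 CPM in KP and at 6.56, 4.98 and 2.44 CPM in IR64 (log2 difference -2.06, SE 0.42, edgeR adjusted p = 0.00069). There Dro1-NIL lay among the IR64 libraries, at 4.67 and 4.64 CPM. LOC_Os09g30270 was at 0.789, 0.759 and 0.381 CPM in KP and at 2.03, 2.23 and 2.44 CPM in IR64 (log2 difference -1.66, SE 0.40, edgeR adjusted p = 0.0026). Dro1-NIL was at 1.31 CPM, between KP and IR64, and at 0.58 CPM, within the KP range. LOC_Os09g27680 was low in every line, at 0.0526, 0.379 and 0.635 CPM in KP and 1.04, 1.15 and 1.83 CPM in IR64. Its call (log2 difference -1.99, edgeR adjusted p = 0.034) was lost without IR64 drought replicate 2 or 3 or without KP drought replicate 1 or 2, with adjusted p of 0.065, 0.074, 0.14 and 0.064 in turn.

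**Figure D1:**
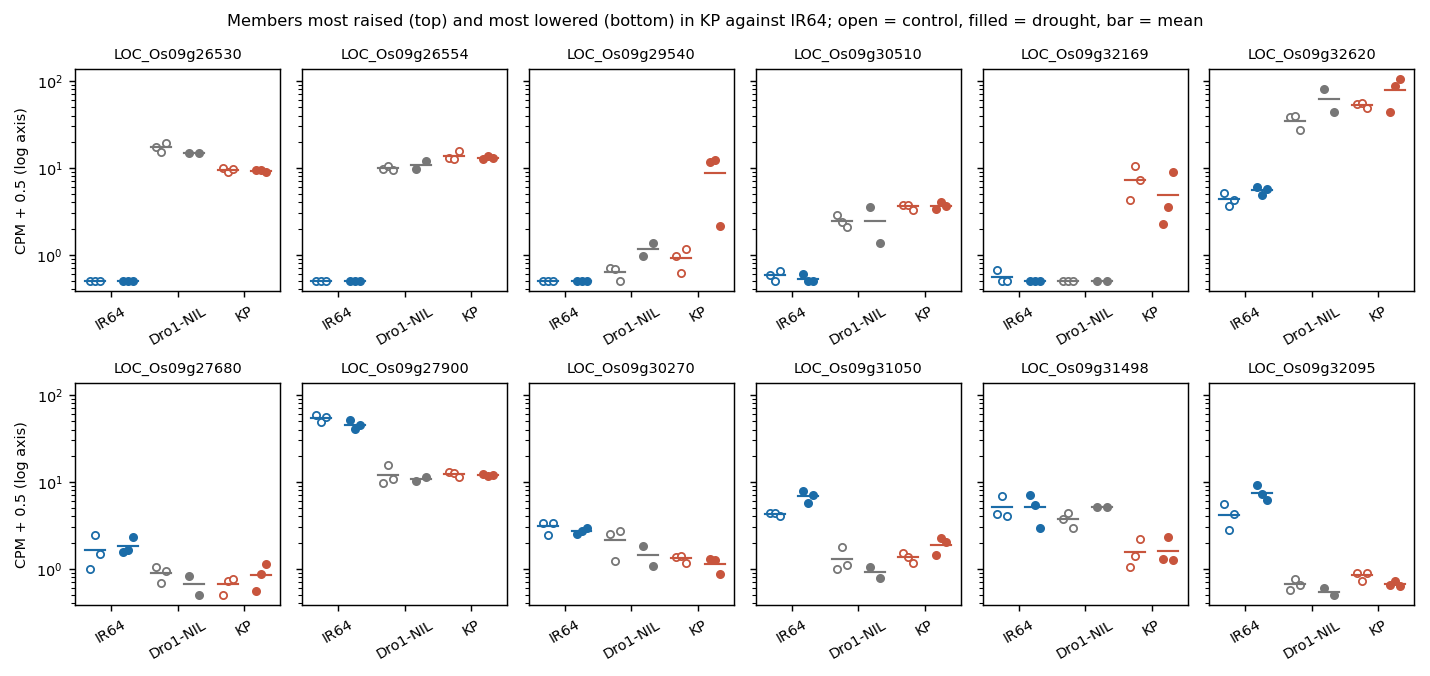
Level in each library, as CPM + 0.5 on a log axis, of the 6 members with the largest (top) and the 6 with the smallest (bottom) log2 difference of KP from IR64 among the members called in drought leaves. Points are libraries (open for control, filled for drought) and bars are means; Dro1-NIL lies near KP for LOC_Os09g26530, LOC_Os09g27900 and LOC_Os09g32620, and near IR64 for LOC_Os09g32169 and LOC_Os09g31498.

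Dro1-NIL differed from IR64 at 15 of the 234 members in drought leaves, 10 higher and 5 lower in Dro1-NIL. Of all genes tested, 0.107 percent were called in this comparison, 0.0805 percent as higher and 0.0268 percent as lower, so 15 of the 24 genes called in the genome were members. These libraries had no part in the choice of the stretch, but they come from the same lines as those that did. Without Dro1-NIL drought replicate 2, the deeper of the 2 libraries, 8 members were called. In the control leaves used for the choice, 19 members passed the thresholds and 0.188 percent of all genes did, a count that the choice itself fixes and from which nothing is read. The median size of the difference in drought leaves was 0.351 on the log2 scale over the members and 0.195 over all genes.

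The 10 members that were higher in Dro1-NIL than in IR64 in drought leaves ran from one end of the stretch to the other. They were LOC_Os09g26530, LOC_Os09g26540, LOC_Os09g26554, LOC_Os09g26560, LOC_Os09g27734, LOC_Os09g27920, LOC_Os09g30510, LOC_Os09g31502, LOC_Os09g32510 and LOC_Os09g32620. LOC_Os09g26540 was at 23.2 and 20 CPM in Dro1-NIL, at 27.4, 26.4 and 24 CPM in KP and at 4.67, 3.04 and 3.46 CPM in IR64. Its log2 difference of Dro1-NIL from IR64 was 2.53 (SE 0.18, edgeR adjusted p = 6.9e-07), and neither line overlapped with IR64. At LOC_Os09g32620 this log2 difference was 3.65 (SE 0.32, edgeR adjusted p = 1.1e-05). At LOC_Os09g30510, Dro1-NIL stood at 59.5 times the IR64 level (95% exact interval 15.9 to 501, edgeR adjusted p = 0.0012).

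The 5 lower members were LOC_Os09g27610, LOC_Os09g27900, LOC_Os09g31050, LOC_Os09g31478 and LOC_Os09g32095. LOC_Os09g27610 was at 37.8 and 31.3 CPM in Dro1-NIL, against 37.3, 30.5 and 31.3 CPM in KP and 80.3, 79.8 and 58.8 CPM in IR64. Dro1-NIL lay within the range of KP or just above it, below every IR64 library (log2 difference from IR64 -1.06, SE 0.15, edgeR adjusted p = 0.0030). The log2 difference of Dro1-NIL from IR64 was -2.14 at LOC_Os09g27900 (SE 0.20, edgeR adjusted p = 1.5e-05) and -3.63 at LOC_Os09g31050 (SE 0.44, edgeR adjusted p = 0.00062). LOC_Os09g32095 held 2 reads in the Dro1-NIL drought libraries, which puts IR64 at 93.4 times the Dro1-NIL level (95% exact interval 25.6 to 774, edgeR adjusted p = 2.9e-05).

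LOC_Os09g31478 was singled out after its values were seen, as a member where Dro1-NIL left both other lines. It was at 3.59 and 2.61 CPM in Dro1-NIL drought leaves, 17.7, 11.5 and 15.3 CPM in IR64 and 20.2, 14.3 and 13.2 CPM in KP. The log2 difference of Dro1-NIL was -2.16 from IR64 (SE 0.33, edgeR adjusted p = 0.0074) and -2.29 from KP (SE 0.33, edgeR adjusted p = 4.7e-05). The difference of KP from IR64 was 0.13 (SE 0.25, edgeR adjusted p = 0.69). In control leaves the means were 5.42 ± 0.379 CPM in Dro1-NIL, 10.4 ± 4.19 in IR64 and 6.71 ± 1.09 in KP (SD, n = 3 each).

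Where Dro1-NIL stood between its parents was described over the 62 members called between KP and IR64 in drought leaves. The position is 0 at the IR64 mean and 1 at the KP mean of log2(CPM + 0.5), taken over control and drought libraries, so the scale rests in part on the IR64 control libraries used for the choice. In Dro1-NIL drought leaves its median was 0.654 over these members, with quartiles of 0.264 and 0.977. Over 292 genes of the rest of chromosome 9 chosen by the same call, the median was 0.0268, and over 5808 genes of the other chromosomes it was 0.0401. On a scale from the drought libraries of IR64 and KP alone, added after seeing the data, the medians were 0.621, 0.0338 and 0.0472. On the first scale 39 of the 62 members lay between the levels of the parents, 8 below that of IR64 and 15 beyond that of KP. On the drought scale 41 lay between, 10 below and 11 beyond. Where the IR64 and KP means over both treatments nearly meet, a position or side says little, though such members stay in all counts and shares. At LOC_Os09g29520 the positions of other cultivars ran from -40.1 to 63. The comparison uses the same IR64 and KP libraries to place every gene and has no test of its own.

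**Figure D2:**
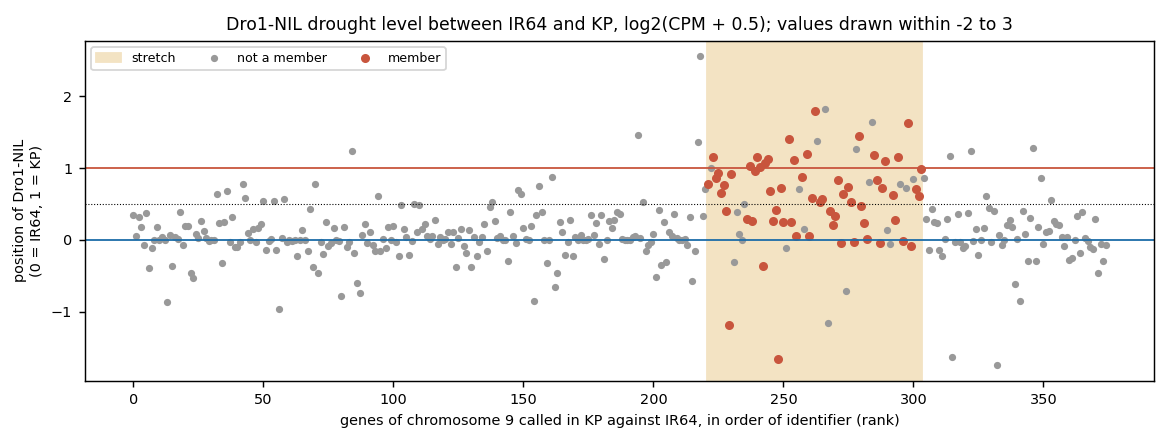
Position of Dro1-NIL drought leaves between IR64 (0) and KP (1) on the log2(CPM + 0.5) scale, for genes of chromosome 9 called in KP against IR64 in drought leaves, in the order of their identifiers. Members within the shaded stretch have a median of 0.654, with 39 of 62 between the parents, 8 below 0 and 15 above 1; other genes of the chromosome gather near 0, with a median of 0.0268.

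Each library was then placed by whether it lay on the KP or the IR64 side of the midpoint between the IR64 and KP means over control and drought libraries. A cultivar is KP-like at a member when all its libraries lay on the KP side, IR64-like when all lay on the IR64 side, and mixed otherwise. By this measure Dro1-NIL drought leaves were KP-like at 31 of 62 members (50%), IR64-like at 19 and mixed at 12. With the midpoint from drought libraries alone the KP-like share was 43.5%. In the rest of chromosome 9 the KP-like share was 4.11% and on the other chromosomes 4.70%. The Dro1-NIL control leaves that chose the stretch were KP-like at 26 members. KP itself was KP-like at 40 of the 62 members and IR64 was IR64-like at 44. Those 2 counts need 6 libraries over both treatments to lie on 1 side, against 2 drought libraries for Dro1-NIL. They are therefore not a ceiling for the Dro1-NIL share.

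At 36 of the 62 members all KP libraries lay on the KP side and all IR64 libraries on the IR64 side. Of these, 20 were KP-like in Dro1-NIL drought leaves, 12 IR64-like and 4 mixed. The members of each kind were interleaved: along the 32 members with a clear class in identifier order, the class changed 18 times. The IR64-like members were LOC_Os09g26620, LOC_Os09g27580, LOC_Os09g27660, LOC_Os09g27795, LOC_Os09g27970, LOC_Os09g28650, LOC_Os09g29970, LOC_Os09g30130, LOC_Os09g31498, LOC_Os09g32080, LOC_Os09g32169 and LOC_Os09g32330. Whether Dro1-NIL carries the KP or the IR64 sequence at each of these genes was not tested.

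Dro1-NIL differed from KP at 32 of the 234 members in drought leaves, 10 higher and 22 lower in Dro1-NIL. Of all genes, 23.5 percent were called in this comparison, 10.1 percent as higher and 13.4 percent as lower, so the members' share of 13.7 percent was below the background. This comparison shares its Dro1-NIL and KP libraries with those above. Without Dro1-NIL drought replicate 2, 17 members were called.

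LOC_Os09g28650 was at 4.81 and 2.03 CPM in Dro1-NIL, against 23.5, 32.8 and 16.4 CPM in KP and 3.07, 3.15 and 3.46 CPM in IR64. The Dro1-NIL libraries lay on both sides of the IR64 ones and below every KP library, with a log2 difference from KP of -2.65 (SE 0.30, edgeR adjusted p = 3.2e-06). LOC_Os09g27580 was at 23.8 and 15.7 CPM in Dro1-NIL, against 93.3, 75.4 and 56.9 CPM in KP and 9.91, 10.7 and 7.53 CPM in IR64. Dro1-NIL lay between the parents here, and its log2 difference was -1.90 from KP (SE 0.23, edgeR adjusted p = 7.6e-06) and 1.09 from IR64 (SE 0.23, edgeR adjusted p = 0.11).

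LOC_Os09g28160 was at 0.607 and 0.58 CPM in Dro1-NIL drought leaves, below the 2.22, 1.72 and 1.63 CPM of IR64 and the 11.3, 10.6 and 5.97 CPM of KP. The log2 difference of Dro1-NIL from KP was -3.96 (SE 0.50, edgeR adjusted p = 9.5e-06). LOC_Os09g31031 was at 1.03 and 0.87 CPM in Dro1-NIL, against 5.73, 3.52 and 9.9 CPM in KP and 0.378, 0.63 and 2.85 CPM in IR64. Its log2 difference of Dro1-NIL from KP was -2.67 (SE 0.74, edgeR adjusted p = 0.0099), and that of KP from IR64 was 2.78 (SE 0.63, edgeR adjusted p = 0.0017). The latter was 2.17 without IR64 drought replicate 1 and 3.66 without IR64 drought replicate 3, the high IR64 library. At LOC_Os09g29540 the log2 difference of Dro1-NIL from KP was -3.91 (SE 0.90, edgeR adjusted p = 0.0045), and at LOC_Os09g32169 KP was at least 36.3-fold above the floor of Dro1-NIL (edgeR adjusted p = 0.0018), or 19.8-fold without KP drought replicate 3.

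The levels of the 62 members were placed in the same way in the other 37 cultivars, over all libraries of each. Here 5 or 6 libraries over both treatments had to lie on 1 side, against 2 for Dro1-NIL in drought. The KP-like shares of these cultivars and of Dro1-NIL are thus not measured alike. Of 2294 pairs of a member and a cultivar, 507 (22.1%) were KP-like, 668 (29.1%) IR64-like and 1119 (48.8%) mixed. The number of KP-like cultivars at a member ran from 1 to 26, with a median of 7. Over the 36 members at which KP and IR64 libraries were fully separated, a median of 9.5 cultivars were KP-like and 12.5 IR64-like, and at 14 of these members KP-like cultivars outnumbered IR64-like ones.

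**Figure D3:**
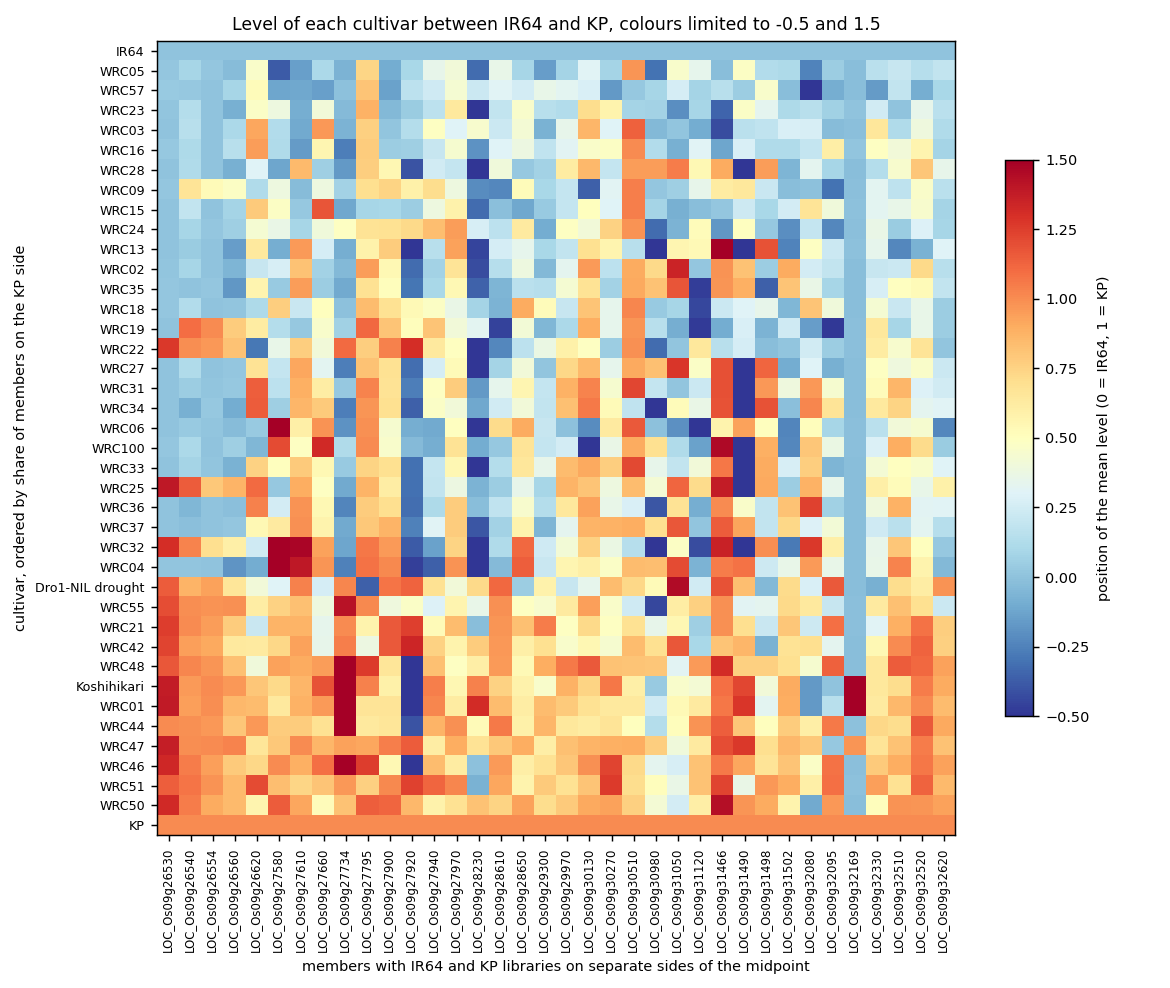
Mean level of each cultivar at the 36 fully separated members, in identifier order, as a position between IR64 (0, blue) and KP (1, orange to red) on the log2(CPM + 0.5) scale, with colours limited to -0.5 and 1.5. Rows are ordered by the share of the 62 called members whose mean lies on the KP side, and Dro1-NIL is shown for its drought libraries. The leftmost 4 members are KP-like together in 11 of the other 37 cultivars. By the mean drawn here they also lie on the KP side in WRC32, WRC42 and WRC44. Columns further along switch partly in the same cultivars and partly in others.

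Near the low end, LOC_Os09g26530, LOC_Os09g26540, LOC_Os09g26554 and LOC_Os09g26560 divided the cultivars in nearly the same way. At all 4 members, 11 cultivars were KP-like and 21 IR64-like. The 11 were Koshihikari, WRC01, WRC21, WRC22, WRC25, WRC46, WRC47, WRC48, WRC50, WRC51 and WRC55. Of the other 5, WRC32, WRC42 and WRC44 were KP-like at the first 3 members and mixed at LOC_Os09g26560. WRC19 was KP-like at LOC_Os09g26540, LOC_Os09g26554 and LOC_Os09g26560 but had 0 reads at LOC_Os09g26530. WRC09 was mixed at LOC_Os09g26540, with 20.6 CPM, at LOC_Os09g26554, with 7.6 CPM, and at LOC_Os09g26560, and IR64-like at LOC_Os09g26530.

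KP-like and IR64-like means fall on opposite sides of the midpoint by the definition of the classes. Their ranges at these members therefore cannot overlap, and mixed cultivars are left out of them. KP-like cultivars had means of 9.19 to 29.9 CPM at LOC_Os09g26530 (median 22), and the 23 IR64-like cultivars had 0 to 0.0807 CPM. KP, with a mean of 8.93 CPM over its libraries, lay below all 14 KP-like cultivars. At LOC_Os09g26554 the KP-like means ran from 4.53 to 13 CPM and the IR64-like ones from 0 to 0.0449 CPM. At LOC_Os09g26540 they ran from 24.9 to 36.2 CPM and from 3.65 to 6.19 CPM, and at LOC_Os09g26560 from 67.8 to 90.4 CPM and from 22.9 to 33.7 CPM. LOC_Os09g26540 and LOC_Os09g26554 had the same 15 KP-like cultivars.

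At the other end of the stretch, LOC_Os09g32620 was KP-like in 10 cultivars, with means of 33.9 to 54.9 CPM. They were Koshihikari, WRC01, WRC21, WRC42, WRC44, WRC46, WRC47, WRC48, WRC50 and WRC51. The 25 IR64-like cultivars had 2.6 to 11.4 CPM. All 10 were also KP-like at LOC_Os09g26530, where 14 cultivars were, and 8 of them were KP-like at the 4 low-end members together. The median agreement was about the same for members close together and far apart in the list of separated members. Steps are ranks in that list and not distances on the chromosome. Between pairs of the separated members, the share of cultivars with a clear class at both that had the same class had a median of 71.3% for 22 adjacent pairs, 66.7% for 90 pairs 2 to 5 steps apart and 70% for 319 pairs further apart. Only pairs with at least 10 such cultivars were counted. No share for pairs of genes from other chromosomes stands beside these.

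The KP-like level was most widespread at LOC_Os09g30510, in 26 cultivars with means of 1.38 to 5.3 CPM. The IR64-like cultivars there were WRC13, WRC23, WRC32, WRC34, WRC36 and WRC57, with 0.0831 to 0.445 CPM beside 0.0553 CPM in IR64. LOC_Os09g27610, which was lower in KP than in IR64 (log2 difference in drought leaves -1.13, SE 0.13, edgeR adjusted p = 2.0e-06), was KP-like in 25 cultivars at 26.7 to 43 CPM. The 9 IR64-like cultivars were WRC03, WRC05, WRC09, WRC15, WRC16, WRC19, WRC23, WRC24 and WRC57, at 70.1 to 83.7 CPM. By the definition of the classes these ranges could not meet. The 3 mixed cultivars were at 49.3 to 64.7 CPM.

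LOC_Os09g31466 was KP-like in 22 cultivars, at 5 to 8.01 CPM, and IR64-like in WRC03, WRC19, WRC23 and WRC24, at 2.09 to 2.62 CPM. In drought leaves it was at 5.78, 5.96 and 6.85 CPM in KP and 3.26, 3.32 and 2.24 CPM in IR64, with a log2 difference of 1.03 (SE 0.23, edgeR adjusted p = 0.0014). This value is close to the fold of 2 and fell under it without IR64 drought replicate 3 (0.93) or KP drought replicate 3 (0.95).

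The KP-like class was rarest, with 1 cultivar each, at 4 of the 62 members, LOC_Os09g29300, LOC_Os09g30462, LOC_Os09g32010 and LOC_Os09g32330. KP itself was mixed at LOC_Os09g30462 and LOC_Os09g32010, and IR64 at LOC_Os09g32010. At these members a small count under the rule for every library does not show that the level was rare. At LOC_Os09g29300 the cultivar was WRC21, with 0.471 CPM, beside 0.538 in KP, 1.69 in IR64 and a median of 1.38 over the 37 cultivars. At LOC_Os09g30462, outside the rule for named members and added after its values were seen, it was WRC21 too, with 3.09 CPM beside 3.23 in KP and 6.61 in IR64. At LOC_Os09g32010 it was Koshihikari, with 1.18 CPM beside 1.19 in KP and 2.55 in IR64, although WRC46 had a lower mean of 1.14 with libraries on both sides. At LOC_Os09g32330 it was WRC46, with 9.53 CPM beside 7.99 in KP, 20.5 in IR64 and a median of 13.6. KP was lower than IR64 in drought leaves at all 4, with log2 differences in this order of -1.50 (SE 0.41, edgeR adjusted p = 0.0067), -1.22 (SE 0.30, edgeR adjusted p = 0.0032), -1.30 (SE 0.40, edgeR adjusted p = 0.013) and -1.31 (SE 0.25, edgeR adjusted p = 0.00049). The last was -0.94 without KP drought replicate 1, under the fold of 2.

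**Figure D4:**
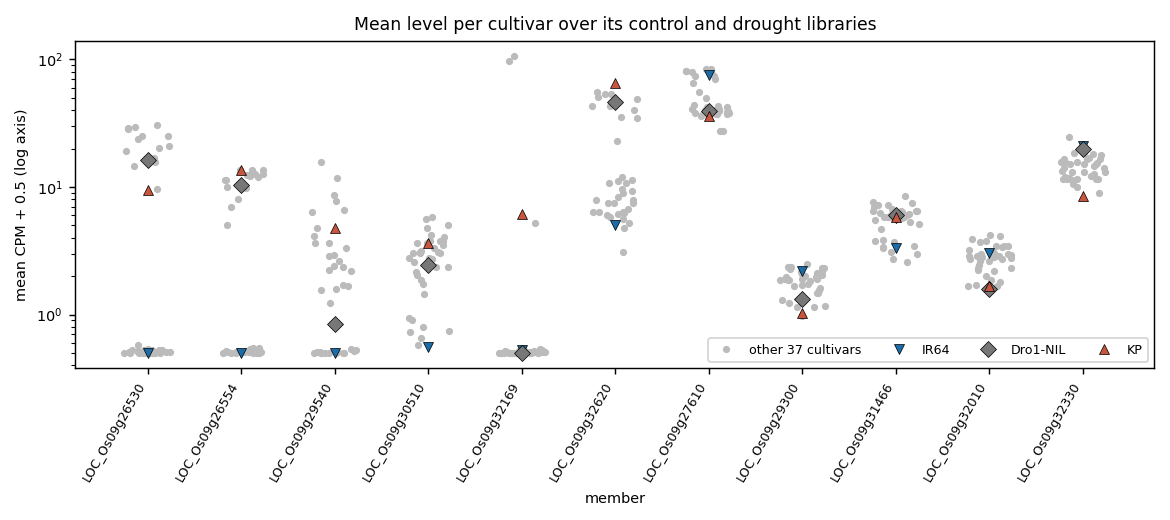
Mean level over control and drought libraries, as CPM + 0.5 on a log axis, of IR64, Dro1-NIL, KP and the other 37 cultivars at members with the largest KP-IR64 difference and at those with the most or fewest KP-like cultivars. Each grey point is a cultivar; at LOC_Os09g26530 and LOC_Os09g26554 the cultivars form separate groups, at LOC_Os09g32169 Koshihikari (106.4 CPM) and WRC01 (96.7 CPM) stand above KP, and at LOC_Os09g32330 the cultivars fill the range between KP and IR64.

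Further along the stretch, the KP-like level was carried partly by the same cultivars and partly by others. LOC_Os09g27900 was KP-like in 18 cultivars at 9.2 to 19.3 CPM. Of these, WRC21, WRC42, WRC47, WRC48, WRC50 and WRC51 were also KP-like at LOC_Os09g32620. The others, among them WRC04, WRC13, WRC19, WRC24 and WRC27, were not. LOC_Os09g31050 was KP-like in WRC02, WRC04, WRC25, WRC27, WRC28, WRC35, WRC37 and WRC42, at 0.572 to 1.01 CPM. LOC_Os09g31498 was KP-like in WRC13, WRC27, WRC28, WRC31, WRC32, WRC33, WRC34, WRC47, WRC48 and WRC51, at 0.749 to 1.68 CPM.

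LOC_Os09g32095, nearly silent in KP and Dro1-NIL, was KP-like in WRC21, WRC44, WRC46, WRC48, WRC50 and WRC51, at 0.0795 to 0.336 CPM. Its 16 IR64-like cultivars had 2.44 to 14.1 CPM, with the highest level in WRC19. LOC_Os09g30270 was KP-like in Koshihikari, WRC46, WRC47, WRC48, WRC50 and WRC51, at 0.538 to 0.937 CPM. The KP-like cultivars of LOC_Os09g32095 and of LOC_Os09g30270 were all KP-like at LOC_Os09g26530 too. LOC_Os09g27680, where KP and IR64 themselves were mixed, was KP-like in WRC04, WRC32 and WRC100, at 0.192 to 0.202 CPM.

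The following named members were higher in KP than in IR64 in drought leaves, without a KP-like level in Dro1-NIL. LOC_Os09g27580 was KP-like in Koshihikari, WRC04, WRC06, WRC21, WRC32, WRC44, WRC46, WRC47, WRC48, WRC50 and WRC51, at 38 to 194 CPM, with the highest mean in WRC06. LOC_Os09g28650 was KP-like in WRC04, WRC06, WRC21, WRC32, WRC47 and WRC50, at 12.5 to 22.2 CPM. LOC_Os09g28160 was KP-like in WRC04, WRC06, WRC19, WRC32 and WRC100, at 5.21 to 37.6 CPM, and mixed in 29. LOC_Os09g31031 was KP-like in WRC06, WRC19 and WRC50, at 5.65 to 11.7 CPM. LOC_Os09g29540 was KP-like in WRC04, WRC13, WRC21, WRC25, WRC27, WRC32, WRC34, WRC37 and WRC100, at 1.68 to 15.1 CPM. KP itself was mixed at LOC_Os09g28160, LOC_Os09g31031 and LOC_Os09g29540, and IR64 was mixed at LOC_Os09g28160 and LOC_Os09g31031. At LOC_Os09g28160 KP lay below IR64 in control leaves, so the midpoint over both treatments does not mark a steady KP level there.

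By cultivar, the share of the 62 members with a KP-like level in every library ran from 0% to 58.1%, with a median of 19.4%. The same share had a median of 29.5% over the 292 genes of the rest of chromosome 9 and of 26.4% over the 5808 genes of the other chromosomes. It was highest in WRC47 with 36 members (58.1%), WRC48 with 32 (51.6%) and Koshihikari with 29 (46.8%). These cultivars also had high shares on the other chromosomes, with 51.3%, 45.3% and 45.5%. WRC21 had 28 members (45.2%), beside 38.7% in the rest of chromosome 9 and 26.4% on the other chromosomes. The lowest shares were those of WRC23 with 0 members, WRC05 with 1 and WRC57 with 1. WRC23 reached 27.7% in the rest of chromosome 9 and 31.8% on the other chromosomes.

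A rule that needs every library on 1 side counts few members where replicates vary, so the side of the mean is given too. By the mean, the cultivars lay on the KP side at 8.06% (WRC05) to 85.5% (WRC50) of the members, with a median of 41.9%, and 14 of the 37 lay there at more than 50%. The median was 46.9% in the rest of chromosome 9 and 48.2% on the other chromosomes. WRC21 was at 67.7%, 54.1% and 41.4% in these sets in turn, WRC44 at 74.2%, 54.1% and 54.3%, and WRC23 at 16.1%, 37.3% and 49.6%. Over the 36 separated members, WRC48 was KP-like at 27, WRC47 at 26, WRC46 at 22, WRC21 at 21 and WRC50 at 21. These are shares of 75%, 72.2%, 61.1%, 58.3% and 58.3%, and over genes of the other chromosomes separated in the same way the shares were 58.1%, 64.8%, 55.9%, 29.9% and 54.7%. In the rest of chromosome 9 they were 62.4%, 76.3%, 62.4%, 43% and 69.9%. On the 36 members WRC57 was IR64-like at 24 (66.7%) and WRC23 at 23 (63.9%), beside 59.7% and 31.6% on the other chromosomes and 72% and 50.5% in the rest of chromosome 9.

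**Figure D5:**
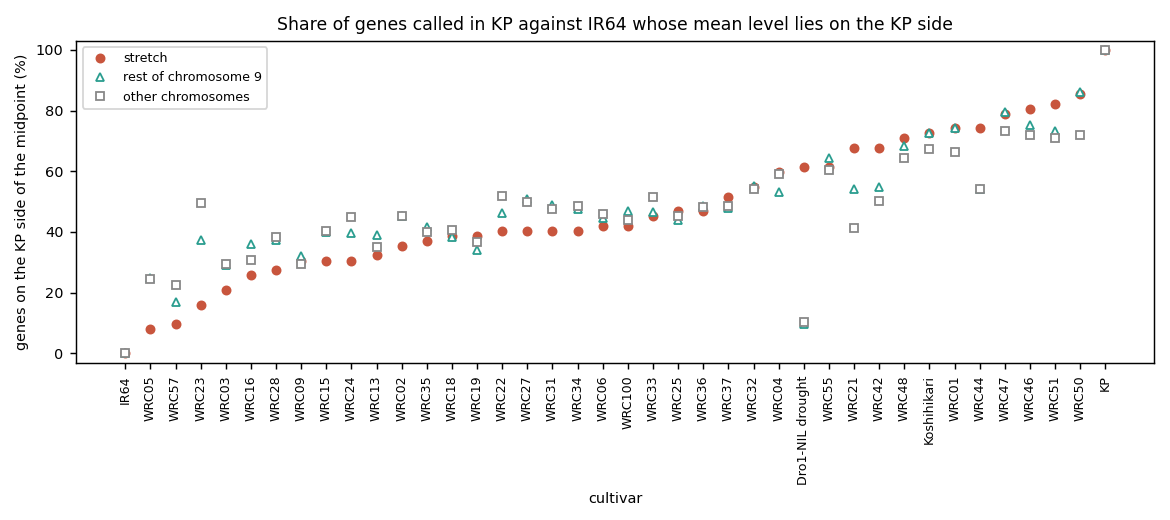
Share of genes called in KP against IR64 in drought leaves whose mean level in a cultivar lies on the KP side of the midpoint, for 62 members, 292 genes of the rest of chromosome 9 and 5808 genes of the other chromosomes. Cultivars are ordered by the members' share; in Dro1-NIL drought leaves the members' share is 61.3% and the others are 9.59% and 10.4%, while in most other cultivars the 3 shares lie closer together.

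Some members had no read at all in some cultivars. In 9 members, at least 1 cultivar had 0 reads over all its libraries. The share over all genes is not given beside this count, so it is not read as a trait of the stretch. LOC_Os09g29270, LOC_Os09g27744 and LOC_Os09g32169 reached the minimum of 1 CPM through the cultivars where they are high. Their contrast between cultivars is thus in part built in by that minimum. LOC_Os09g29270 had 0 reads in 21 cultivars, IR64 and KP among them, and 1 read in Dro1-NIL. Its highest means were 42.5 CPM in WRC01, 39.4 in Koshihikari, 36.7 in WRC46, 33.3 in WRC50, 32.2 in WRC15 and 28.2 in WRC100. LOC_Os09g27744 had 0 reads in 20 cultivars, with IR64, Dro1-NIL and KP among them. It reached 25.7 CPM in WRC01, 25.5 in Koshihikari, 9.78 in WRC21, 7.63 in WRC47 and 3.55 in WRC35. Since KP and IR64 were both at or near 0, these 2 members were not tested and have no KP-like level.

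LOC_Os09g32169 had 0 reads in 18 cultivars, Dro1-NIL among them, and was KP-like in 3. These were Koshihikari at 106.4 CPM, WRC01 at 96.7 CPM and WRC47 at 4.75 CPM, beside 5.61 CPM in KP. The other 34 cultivars had at most 0.0422 CPM. LOC_Os09g26530 had 0 reads in 11 cultivars, LOC_Os09g29540 in 9 and LOC_Os09g26554 in 8, each with IR64 among them. LOC_Os09g27920 had 0 reads in 3 cultivars, LOC_Os09g27734 in 2 and LOC_Os09g31490 in 1.

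Drought changed few members by a fold of 2 over the 40 cultivars, with counts summed per cultivar and treatment. The control libraries of IR64 and Dro1-NIL that chose the stretch are among those summed. Of 233 members tested, 1 was called, LOC_Os09g26670, while 1.08 percent of all genes were. At any fold, 127 members had an adjusted p under 0.05, 78 higher (33.5% of the members tested) and 49 lower (21%), beside 24.6% and 23.2% of all genes. LOC_Os09g32290 had the largest increase among these, 0.88 on the log2 scale. LOC_Os09g26670 was at 2.75 to 75.6 CPM in control leaves (median of the cultivars 15.9) and at 1.21 to 32.6 CPM in drought leaves (median 6.07), so the ranges overlap widely. The mean was 18.9 ± 16.1 CPM in control and 9.38 ± 8.38 CPM in drought leaves (SD, n = 40 cultivars), and it was lower in drought in 33 cultivars and higher in 7. Its log2 difference was -1.01 (SE 0.18, edgeR adjusted p = 9.5e-06), from -4.10 in WRC50 to 0.63 in WRC28. The call rests on the fold of 2, since the difference was -0.99 without WRC09 and -0.90 without the libraries numbered 3.

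The difference between KP and IR64 depended on the treatment at 3 of the 234 members, beside 0.380 percent of all genes (edgeR quasi-likelihood test). This contrast uses the IR64 control libraries from which the stretch was chosen, so it is not independent of that choice. At LOC_Os09g28160 the KP level was 0.237, 0.803 and 0.336 CPM in control and 11.3, 10.6 and 5.97 CPM in drought leaves. IR64 was at 0.992, 1.46 and 1.39 CPM and at 2.22, 1.72 and 1.63 CPM. KP lay below IR64 in control and above it in drought leaves. LOC_Os09g27580 was at 44.3, 39 and 48 CPM in KP control and 93.3, 75.4 and 56.9 CPM in KP drought leaves, while IR64 went from 13.2, 20.6 and 14.6 CPM to 9.91, 10.7 and 7.53 CPM. LOC_Os09g26670 was at 26, 29.4 and 22.1 CPM in KP control leaves and at 2.52, 1.46 and 2.92 CPM in KP drought leaves. IR64 was at 5.95, 3.63 and 2.79 CPM and at 5.76, 2.75 and 1.02 CPM, ranges that overlap.

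The count of 3 rests on single libraries. It was 0 without IR64 control replicate 3, IR64 drought replicate 1 or IR64 drought replicate 2. It was 1 without IR64 control replicate 2, any of the KP control replicates, or KP drought replicate 1 or 2, and 8 without KP drought replicate 3. At an unadjusted p under 0.05, 33 members differed by treatment, which is 14.1% of the members tested beside 10.3% of all genes.

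Over the 40 cultivars, the members varied about as much as other genes. The share of the variance of log2(CPM + 0.5) that lay between cultivars had a median of 53.6% over 233 members and 56.1% over all tested genes. It was highest, 99.7%, at LOC_Os09g26530. The log2 range over the cultivar means had a median of 1.43 over the members and 1.49 over all tested genes.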

How the data were processed

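Leaf RNA of 40 rice cultivars was sequenced from strand-specific libraries. The authors deposited raw read counts per gene, made with STAR and featureCounts 2.0.0 on the build IRGSP-1.0, per the submitters' processing notes. The annotation release, the strand setting and the treatment of reads with several positions are not given in the sources used here. Of 239 libraries, 235 held at least 1 M reads and were used (2.61 to 59.5 M).

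Tests used edgeR 4.0.16 under R 4.3.3, with filterByExpr at a minimum count of 10, TMM scaling and glmQLFTest, with Benjamini-Hochberg adjustment over all tested genes. The 17 libraries of IR64, Dro1-NIL and KP were fitted together as 6 groups. For drought over the 40 cultivars, counts were summed per cultivar and treatment, with cultivar as a term and the dispersion trend from every 10th gene. Shares were computed with Python 3.11.15 on log2(CPM + 0.5). Intervals on ratios and floors (3 reads over a group) cover counting error only. Members, lists and tests were chosen with earlier results of these data known. Members in the text are those with extreme differences between KP and IR64, with the most or fewest KP-like cultivars, IR64-like in Dro1-NIL, called in another comparison, or with 0 reads in a cultivar; other members are named in lists. No 2 replicates were identical or agreed within sampling noise. The fits were tested on simulated counts. Alternatives were DESeq2 1.42.0, RLE scaling, no filter, a replicate block, drought libraries alone, other pseudocounts, midpoints and rules for the shares, and each library left out in turn.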

Additional observations from a re-analysis of the deposited data

Results flagged for a closer look

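The difference between KP and IR64 changed with the treatment at 3 members, by a test of that change itself (edgeR quasi-likelihood test, 3 libraries per line and treatment). The IR64 control libraries in this test were also used to choose the stretch. At LOC_Os09g28160 the log2 difference of KP from IR64 was larger in drought than in control leaves by 3.73 (SE 0.55, adjusted p = 0.013). KP went from 0.458 ± 0.302 to 9.28 ± 2.89 CPM and IR64 from 1.28 ± 0.254 to 1.86 ± 0.318 CPM (SD, n = 3 each). At LOC_Os09g27580 it was larger by 1.55 (SE 0.28, adjusted p = 0.034), with KP going from 43.8 ± 4.5 to 75.2 ± 18.2 CPM and IR64 from 16.1 ± 3.93 to 9.37 ± 1.63 CPM. At LOC_Os09g26670 the change was -3.33 (SE 0.65, adjusted p = 0.039), with KP going from 25.8 ± 3.66 to 2.30 ± 0.753 CPM and IR64 from 4.12 ± 1.64 to 3.18 ± 2.40 CPM. KP drought replicate 3 held 7.92 M reads and IR64 drought replicate 3 held 4.39 M. With 1 library left out in turn, 0 to 8 members changed with the treatment in this way. The part of depth in these 3 results was not tested.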

How the results depend on the processing

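The count of 62 members called in KP against IR64 stayed within 57 to 62 under every alternative without the block. For Dro1-NIL against IR64 the count of 15 was 23 with DESeq2 and 26 without the filter on low counts, and leaving out 1 library gave 8 to 14. For Dro1-NIL against KP the count of 32 was 17 to 35 with 1 library left out. For the change of the KP-IR64 difference with treatment, the count of 3 was 6 with DESeq2, 9 without the filter and 0 to 8 with 1 library left out. For drought over 40 cultivars the count of 1 was 0 without WRC09, and 0 to 1 with the libraries of 1 replicate number left out. The difference of KP from IR64 at LOC_Os09g26670 in drought leaves, -0.65 and not called, was 0.05 without IR64 drought replicate 1 and -0.91 to 0.05 over all single libraries left out. The cause was not tested. Counts of called members under these alternatives, here and in the Results, stand without the count over all genes under the same alternative. They do not show whether a change was particular to the members.

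The labels do not say that a replicate number marks a shared batch, and same-numbered libraries did not deviate together throughout. The correlations of deviations from the group means were -0.178, -0.078 and -0.045 for KP and IR64 drought leaves, 0.056 and 0.246 for Dro1-NIL and IR64, and 0.263 and 0.001 for Dro1-NIL and KP. They were 0.36, -0.082 and 0.381 for IR64 control and drought leaves, and over all such pairs of the 40 cultivars they ran from -0.749 to 0.548, with a median of 0.096. With the replicate number as a block the counts were 63 for KP against IR64, 16 for Dro1-NIL against IR64, 33 for Dro1-NIL against KP, 4 for the change with treatment and 1 for drought.

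The median share of KP-like members over 37 cultivars, 19.4%, was 41.9% by the side of the mean, 38.7% for levels within 2-fold of KP, and 22.6% to 24.2% with 1 replicate number left out. The share in Dro1-NIL drought leaves, 50%, was 54.8% with a pseudocount of 0.1 CPM, 46.8% with 2 CPM, 43.5% with the midpoint from drought libraries, 61.3% by the side of the mean, 59.7% for levels within 2-fold of KP, 56.5% with libraries of at least 5 M reads and 46.8% to 62.9% with 1 replicate number left out. Over the separated members, an alternative chosen after seeing the data, it was 55.6%. Members at a few CPM rest on few reads in the shallow libraries, which limits both their calls and the shares.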
